A study of Mus musculus with 4 samples.

Results

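Slit2, Slit3, Robo1, Robo2, Robo4, Unc5b, Unc5c, Sema3g, Plxnd1 and Ntn1, which encode secreted guidance cues and their receptors, were followed in single nuclei of mouse aortic tissue. They are 10 of the 32285 gene rows of the count matrices. Their rows were taken by symbol, but the genes were chosen with earlier results of these data known. All mice, controls included, carried a knockin of CA1 (mouse gene Car1, a cytosolic carbonic anhydrase) and had the genotype CA1 knockin ApoE-/-, in which loss of ApoE favours atherosclerosis. The 4 groups had 1 library each. They were mice left untreated, mice on high-fat food, mice on high-fat food that received methoxazolamide (MTZ, which the series title names as an inhibitor of CA1) only once atherosclerosis was present (delayed-MTZ), and mice that received it together with the diet (joint-MTZ); 4 values in a row below follow this order. The promoter behind the knockin, the age of the mice, their number per library, the length of the diet and the dose were not given in the sources used here.

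The matrices held 19335 to 38114 nuclei per library and 31517272 to 69201159 UMIs (unique molecular identifiers, each marking 1 captured RNA molecule). Of 107978 nuclei, 99718 were kept, with a median of 826 (delayed-MTZ) to 2033 (untreated) UMIs per nucleus. Clustering without the guidance genes gave 23 clusters, of which marker genes placed all but 6 in 13 classes. Unnamed clusters held 10.9% of the kept nuclei in untreated and delayed-MTZ, 25.6% in joint-MTZ and 36.0% in high-fat. Nuclei of neighbouring organs were unevenly present: adrenal-cortex-like nuclei numbered 4226 in delayed-MTZ and at most 5 in any other library, and chromaffin-like nuclei 1567 in delayed-MTZ and at most 65 elsewhere. From 119 to 376 cell barcodes were shared by each pair of libraries (0.531 to 1.34% of a library). Car1 was counted at 63.4 to 151 CPM (UMI counts scaled to a total of 1000000 in the same set of nuclei) and Apoe at 8.87 to 10.9 CPM. Every library carried the knockin and the Apoe allele, so these levels check no label.

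Slit proteins are secreted and bind Robo receptors, and in the nervous system this steers axons and migrating cells away from the source. The same families act outside the nervous system: Robo4 is largely an endothelial receptor, netrin-1 (Ntn1) binds Unc5 receptors, and class 3 semaphorins such as Sema3g act through neuropilins and plexins, of which Plxnd1 is the main vascular plexin. In arteries these cues are known to affect endothelial barrier function, vessel branching and the movement of leukocytes and smooth muscle cells.

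Levels below are UMI counts summed over the nuclei of a class in a library and scaled to CPM, with exact 95% counting intervals. Since the libraries count transcript ends and no length scaling was done, levels are compared between classes and libraries for 1 gene, not between genes. T or NK-like and B-like nuclei, which are not known to use most of these genes, served as a measure of free RNA in each library, singly or as their pooled level. This level is not a floor common to all classes. In untreated, Slit3 was 134 CPM in endothelial-like and 145 CPM in macrophage-like nuclei, against a pooled level of 270 CPM. In that library the 15 endothelial markers summed to 2704 CPM in T or NK-like and 1451 CPM in macrophage-like nuclei. Free RNA below means the T or NK-like and B-like level, and its subtraction can remove too much in other classes. In 6 of 10 genes the same class held the highest level of the 7 compared classes in all 4 libraries: fibroblast-like nuclei for Slit3 and Robo1, smooth-muscle-like nuclei for Unc5c, and endothelial-like nuclei for Sema3g, Plxnd1 and Ntn1.

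**Figure D1:**
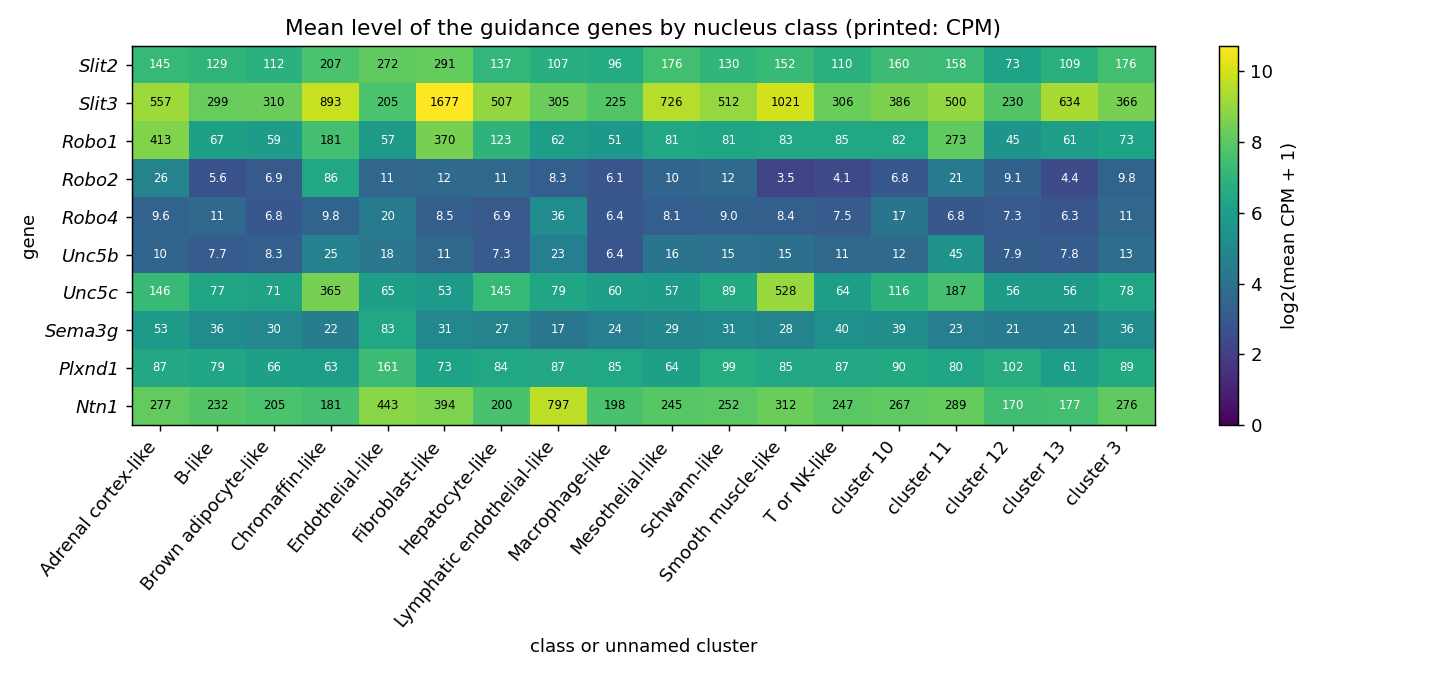
Heat map of the mean level over libraries (printed in CPM, colour on a log2(CPM + 1) scale) of the 10 genes in each nucleus class or unnamed cluster with at least 50 nuclei. Slit3 stands out in fibroblast-like (mean 1677 CPM) and smooth-muscle-like nuclei (1021 CPM), Unc5c in smooth-muscle-like nuclei (528 CPM), and Ntn1 in lymphatic-endothelial-like nuclei (797 CPM).

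Slit2 (ENSMUSG00000031558, chromosome 5 from 47983138 to 48307733 in GRCm38, plus strand) encodes a ligand of Robo1 and Robo2. Endothelial-like nuclei of untreated mice held 141 CPM (134 to 149), those of high-fat 556 CPM (536 to 577), those of delayed-MTZ 156 CPM (146 to 166) and those of joint-MTZ 234 CPM (223 to 246). High-fat stood apart from the other 3 libraries, whose intervals lay far below it. Fibroblast-like nuclei held 356, 286, 251 and 273 CPM in the same order, and there untreated was the top library. Averaged over libraries, the level was 291 CPM in fibroblast-like (SD 45.4 over the 4 libraries) and 272 CPM in endothelial-like nuclei (SD 194). These SDs span differently treated groups and are no replicate error. Within libraries the fibroblast-like level was the higher except in high-fat. The peak in high-fat was shared by the measure of free RNA, while the order of the other libraries was not: T or NK-like nuclei held 76.8, 193, 119 and 50.2 CPM of Slit2, and B-like nuclei 43.9, 223, 151 and 96.6 CPM. Macrophage-like nuclei, with 53.3, 173, 71.7 and 87.3 CPM, were in each library at or below one of these 2 background levels.

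Slit3 (ENSMUSG00000056427, chromosome 11 from 35121224 to 35708507, plus strand) encodes a related ligand with a mesenchymal pattern here. Fibroblast-like nuclei held 2271, 1273, 1396 and 1769 CPM. Smooth-muscle-like nuclei were second on the mean over libraries with 1257, 810.5, 1003 and 1015 CPM. In both classes untreated held the highest level and high-fat the lowest, with counting intervals that did not overlap (2228 to 2314 against 1208 to 1341 CPM in fibroblast-like nuclei). The T or NK-like level was 309, 242, 396 and 277 CPM, so both mesenchymal classes stood above free RNA in every library.

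Both Slit genes carry a microRNA in intron 14, the miR-218 hairpins, whose seed is shown because it also matches Robo 3' UTRs. The hairpins lie on chromosome 5 from 48223942 to 48224051 and on chromosome 11 from 35616816 to 35616925, overlap no exon of their host, and give the same mature sequence (RefSeq, GRCm38.p6; capitals mark the seed, bases 2 to 8). A match to the seed (AAGCACA) occurs in the longest annotated 3' UTR of Robo1 (1 match), Robo2 (2) and Slit2 (2) and in none of the other 7 genes, while 14.8% of 21166 genes hold one. The sites below (GENCODE transcripts, first match of each gene, seed match in capitals) start at base 989 of the 1736-base Robo1 3' UTR and base 464 of the 3990-base Robo2 3' UTR, counting the capitals. The microRNA itself is not measured by these libraries.
miR-218-5p: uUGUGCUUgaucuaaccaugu
Robo1 site: ttttttggttttaaAAGCACAa
Robo2 site: ttttatttggtgatAAGCACAa

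Ntn1 (ENSMUSG00000020902, chromosome 11 from 68209364 to 68400823, minus strand) encodes netrin-1, the ligand of Unc5 receptors, Dcc and neogenin. Lymphatic-endothelial-like nuclei held the highest level in every library, with 852, 811, 557 and 967 CPM. Endothelial-like nuclei held 547, 415, 397 and 414 CPM, with untreated above the other 3, and fibroblast-like nuclei 443, 413, 378 and 342 CPM. The mean over libraries was 443 CPM (SD 69.8) in endothelial-like and 394 CPM (SD 43.6) in fibroblast-like nuclei. These SDs span differently treated groups and are no replicate error. Within every library the endothelial-like level was the higher, though barely so in high-fat. In T or NK-like nuclei Ntn1 was at 233, 265, 277 and 214 CPM, so similar levels in other classes cannot be told apart from free RNA.

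Sema3g (ENSMUSG00000021904, chromosome 14 from 31217860 to 31230352, plus strand) encodes a class 3 semaphorin known from arterial endothelium. Its endothelial-like level was 86.4 CPM (80.6 to 92.6), 70.5 CPM (63.3 to 78.2), 97.2 CPM (89.6 to 105) and 79.2 CPM (72.7 to 86.1). The libraries lay close together, and the interval of joint-MTZ met those of untreated and high-fat. In T or NK-like nuclei the level was 19.6, 28.5, 67.2 and 45.8 CPM, so the margin over free RNA was smallest in delayed-MTZ.

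Plxnd1 (ENSMUSG00000030123, chromosome 6 from 115954811 to 115995005, minus strand) encodes a semaphorin receptor of endothelium. Its endothelial-like level was 178, 162, 139 and 166 CPM, a mean of 161 CPM with an SD of 16.2 over the 4 libraries. Second on the mean over libraries was the unnamed cluster 12 led by Cd163 and Cd209a, with 102 CPM (SD 11.8). Free RNA in T or NK-like nuclei gave 85.2, 89.6, 87.0 and 85.1 CPM, below the endothelial-like level in each library.

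The sequences just upstream of 3 of these genes are given because Sema3g and Plxnd1 were highest in endothelial-like nuclei in every library, whereas Slit2 was highest there only in high-fat. Capitals mark the core letters bound by ETS factors, a family with many endothelial members (AGGAAG or CGGAAG on either strand). Of 32851 mouse windows of the 250 bases before a gene start, 39.2% hold at least 1 such core and 11.3% at least 2. Plxnd1 holds 2, at 203 and 180 bases before the start, Sema3g 1 at 89 bases and Robo4 1 at 49 bases. None was found in the windows of Slit2, Slit3, Robo1, Unc5b and Unc5c, 1 of the 3 Robo2 windows holds 1, and Ntn1 was not searched (9 of 10 genes matched the RefSeq table, GRCm38.p6). These starts can differ from the gene positions given for each gene. The Robo1 and Unc5c windows lie inside the spans given for these genes. Before the first annotated exon the Unc5c window has 0 bases and the Slit3 window 18, so their lack of a core says little about upstream sequence. A match is a description of the letters and not of binding. The runs are 5' to 3' on the strand of the gene and stop before any annotated exon: chr5:47982905-47983137 (plus), chr14:31217623-31217859 (plus) and chr6:115995006-115995255 (minus).
Slit2 upstream: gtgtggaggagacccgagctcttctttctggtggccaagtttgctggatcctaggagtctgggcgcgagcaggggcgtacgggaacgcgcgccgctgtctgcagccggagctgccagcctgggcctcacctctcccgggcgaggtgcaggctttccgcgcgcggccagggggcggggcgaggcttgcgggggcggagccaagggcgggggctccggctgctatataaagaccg
Sema3g upstream: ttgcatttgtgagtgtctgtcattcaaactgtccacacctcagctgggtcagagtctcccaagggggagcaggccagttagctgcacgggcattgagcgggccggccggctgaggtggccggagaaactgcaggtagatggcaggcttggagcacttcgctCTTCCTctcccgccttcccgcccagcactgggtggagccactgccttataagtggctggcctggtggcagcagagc
Plxnd1 upstream: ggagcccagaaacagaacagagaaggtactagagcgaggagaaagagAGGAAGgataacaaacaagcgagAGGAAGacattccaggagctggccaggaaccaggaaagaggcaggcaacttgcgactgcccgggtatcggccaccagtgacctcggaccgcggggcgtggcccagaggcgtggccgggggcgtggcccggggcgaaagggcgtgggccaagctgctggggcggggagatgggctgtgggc

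Robo1 (ENSMUSG00000022883, chromosome 16 from 72308306 to 73046095, plus strand) encodes a receptor of both Slit ligands. Fibroblast-like nuclei held 565 CPM (544 to 587), 294 CPM (263 to 328), 303 CPM (275 to 333) and 317 CPM (296 to 339). Untreated stood apart, and the other 3 libraries had overlapping intervals. The unnamed cluster 11, led by Cemip, Mmp13 and Grem1, held 268, 219.7, 251 and 353 CPM and was above the fibroblast-like level in joint-MTZ. In delayed-MTZ the adrenal-cortex-like nuclei had 413 CPM and gave 39.6% of all Robo1 UMIs of that library while holding 18.2% of its UMIs. In T or NK-like nuclei the level was 131 CPM in delayed-MTZ and 55.0 to 95 CPM in the other libraries.

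Robo2 (ENSMUSG00000052516, chromosome 16 from 73891839 to 74411825, minus strand) encodes a Slit receptor best known from neurons. It was the rarest of the 10, with 1467 counts in all kept nuclei. Chromaffin-like nuclei, which are of neural crest type, had 121 CPM in delayed-MTZ (106 to 136) and 51.0 CPM in joint-MTZ (27.2 to 87.3), and gave 32.7% of the Robo2 UMIs of delayed-MTZ. In endothelial-like nuclei the level was 9.83, 6.93, 15.6 and 9.72 CPM, and in fibroblast-like nuclei 1.90, 1.79, 38.2 and 6.32 CPM. The unnamed cluster 11 had 52.6 CPM in untreated and 8.41 to 13.3 CPM in the others.

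Robo4 (ENSMUSG00000032125, chromosome 9 from 37401897 to 37415115, plus strand) encodes the endothelial Robo. Lymphatic-endothelial-like nuclei had the highest mean over libraries with 35.6, 18.0, 41.9 and 48.3 CPM, where the high-fat value rests on 2 counts and lies below the endothelial-like one. Endothelial-like nuclei held 21.8, 19.6, 18.8 and 20.6 CPM, with intervals that all overlapped (mean 20.2 CPM, SD 1.29 over the 4 libraries). Background in T or NK-like nuclei was 1.40, 10.2, 11.9 and 6.55 CPM from 1 to 5 counts each, and in B-like nuclei 3.03, 10.2, 22.9 and 7.98 CPM from 2 to 9 counts each. In delayed-MTZ the B-like level was thus above the endothelial-like one, and the pooled level was 17.0 CPM.

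Unc5b (ENSMUSG00000020099, chromosome 10 from 60762593 to 60831581, minus strand) encodes a netrin receptor of endothelium and macrophages. The unnamed cluster 11 held the highest level over libraries (48.8, 35.9, 28.9 and 65.3 CPM). Endothelial-like nuclei held 23.0, 22.4, 9.32 and 18.0 CPM, and delayed-MTZ was the library that stood apart. Macrophage-like nuclei held 3.85, 12, 4.95 and 4.64 CPM, and here high-fat stood apart. High-fat T or NK-like nuclei had 22.4 CPM from 11 counts, so the macrophage-like level of that library was not above free RNA.

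Unc5c (ENSMUSG00000059921, chromosome 3 from 141465216 to 141834924, plus strand) encodes a netrin receptor with a smooth muscle pattern here. Smooth-muscle-like nuclei held 999 CPM (945 to 1055), 239 CPM (207 to 274), 416 CPM (392.4 to 440.4) and 458 CPM (438 to 478). Untreated stood far above the other libraries, high-fat was lowest, and the MTZ libraries lay between. Chromaffin-like nuclei held 479 CPM in delayed-MTZ, above the smooth-muscle-like level of that library, and 251 CPM in joint-MTZ. The T or NK-like level was 48.9, 50.9, 98.9 and 56.7 CPM, far below the smooth-muscle-like level in each library.

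**Figure D2:**
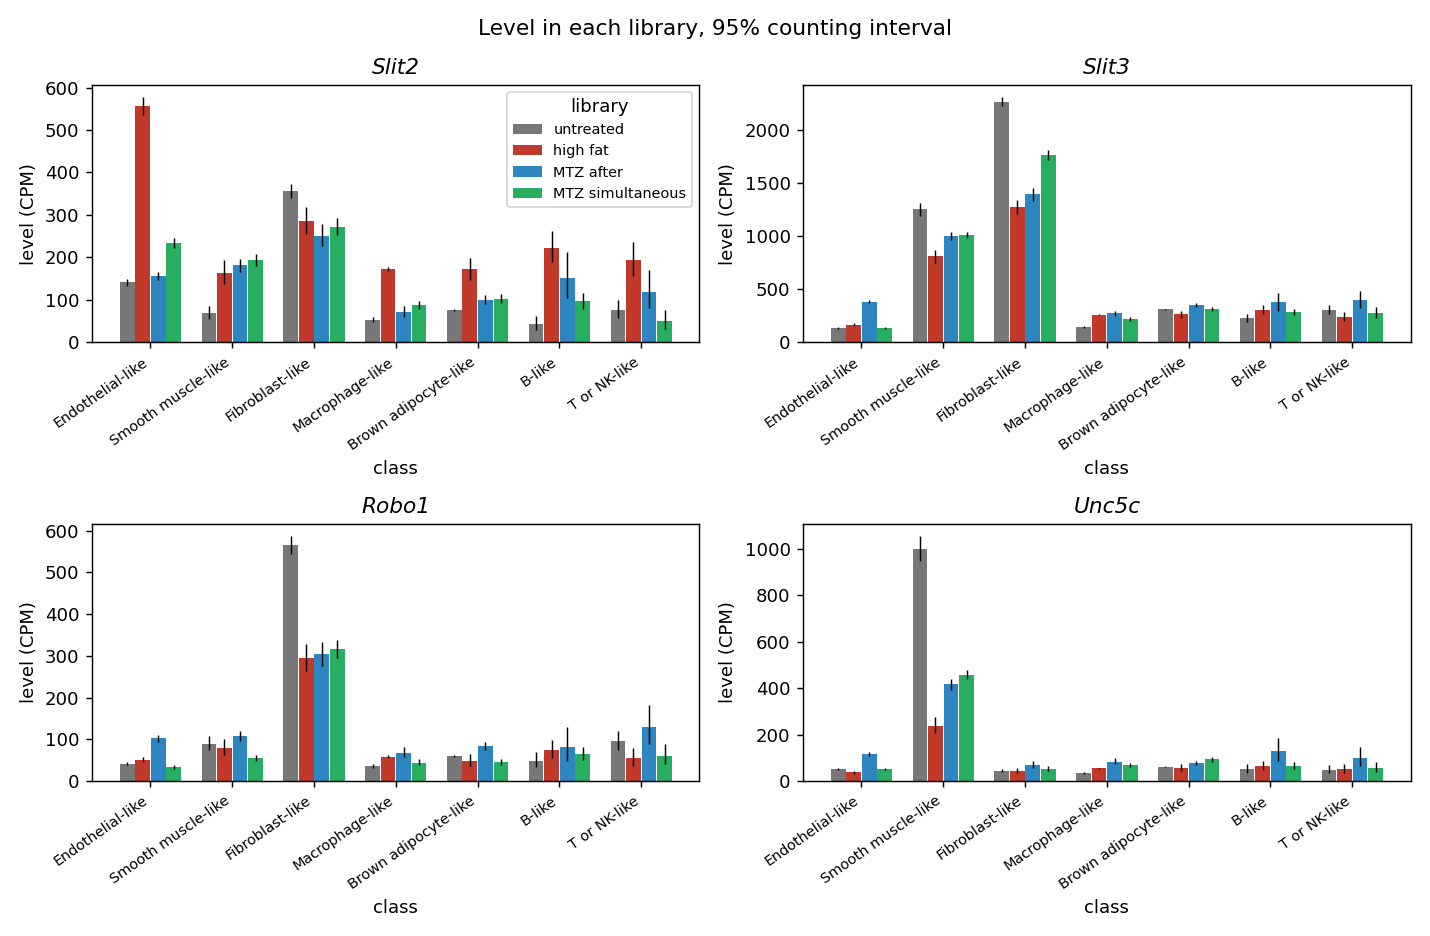
Bars give the level in CPM of Slit2, Slit3, Robo1 and Unc5c in the 7 compared classes for each library, and lines the 95% counting interval. Slit2 peaks in high-fat endothelial-like nuclei (556 CPM), and Slit3, Robo1 and Unc5c peak in untreated fibroblast-like or smooth-muscle-like nuclei (2271, 565 and 999 CPM).

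The share of nuclei with at least 1 UMI, after each nucleus was thinned to 500 UMIs to remove depth differences, gave the same picture for the abundant genes. A UMI of Unc5c was found in 27.9, 10.7, 16.4 and 18.9% of smooth-muscle-like nuclei, while 2.51 to 4.23% of T or NK-like nuclei held one. Before thinning, the smooth-muscle-like shares were 48.7, 20.4, 27.9 and 40.8%. For Slit2 in endothelial-like nuclei the thinned shares were 4.58, 16.7, 5.85 and 7.10% (12.1, 28.9, 10.4 and 19.4% before thinning). The matching T or NK-like shares were 3.95, 9.58, 5.77 and 2.82%, so the endothelial-like share of Slit2 was close to background in untreated and delayed-MTZ. Slit3 was found in 54.6, 39.7, 43.3 and 47.8% of fibroblast-like nuclei and Robo1 in 19.3, 11.5, 11.5 and 12%. Each gene was set against free RNA in its highest compared class in each library, 40 combinations in all. The interval lay above those of both T or NK-like and B-like nuclei in 17 combinations. These were all 4 libraries for Slit3 and Unc5c, 3 for Slit2 and Robo1, 2 for Ntn1 and 1 for Plxnd1, while Robo2, Robo4, Unc5b and Sema3g reached it in no library at this depth.

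**Figure D3:**
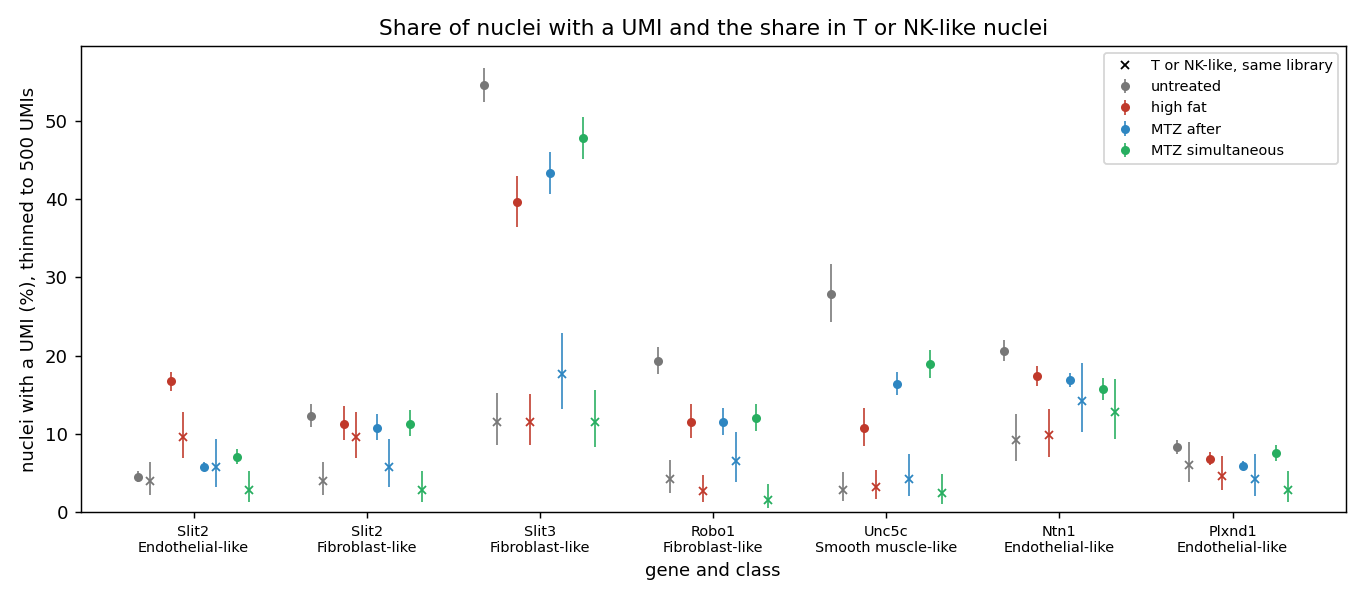
Points give the percentage of nuclei with a UMI after thinning to 500 UMIs per nucleus for 6 genes in their highest classes, crosses the same in T or NK-like nuclei of the same library, and lines exact 95% intervals. Slit3 and Unc5c lie well above the crosses in all 4 libraries, while endothelial-like Slit2 lies near its cross in untreated (4.58 against 3.95%) and delayed-MTZ (5.85 against 5.77%). Robo1 lies well above them outside delayed-MTZ. There its interval starts at 9.83%, below the highest upper end of the T or NK-like and B-like intervals (10.3%).

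The first comparison asked what differed in mice on high-fat food against untreated mice. A gene was called in a class when its CPM differed at least 2-fold and at least 50 counts stood behind the larger value; with 1 library per group there is no replicate error and no test, and each interval covers counting only. Of 70 gene and class pairs, 54 had at least 50 counts in 1 of the libraries, 8 were called higher and 1 lower in high-fat. Over all genes with enough counts in these classes the rule called 7.98% (4.6% higher and 3.37% lower). With free RNA subtracted from both levels, which left 17 of 50 pairs above 0, the split was 2 higher and 7 lower. The share over all genes was not computed with subtraction, so this split has no background beside it. Ratios after subtraction have no interval, and the rule still used the counts before it. Slit2 made up 6 of the 8 higher calls. Its ratio was 3.94 (3.69 to 4.21) in endothelial-like nuclei from 2811 against 1322 counts. It was 3.24 (2.89 to 3.65) in macrophage-like, 2.35 (1.79 to 3.10) in smooth-muscle-like and 2.26 (1.93 to 2.64) in brown-adipocyte-like nuclei. The T or NK-like ratio was 2.52 (1.79 to 3.58) and the B-like ratio 5.08 (3.40 to 7.84), so the classes used to measure free RNA rose as well. Among the 15 classes and clusters with a level in both libraries, Slit2 was above its untreated level in 14, and fibroblast-like nuclei were the exception with a ratio of 0.803 (0.710 to 0.906). With the pooled T or NK-like and B-like level subtracted, the endothelial-like ratio was 4.31 and the fibroblast-like ratio 0.255, which was then called lower. In macrophage-like, smooth-muscle-like and brown-adipocyte-like nuclei of high-fat, Slit2 (173, 163 and 172 CPM) was below the pooled level of 211 CPM.

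Endothelial-like nuclei were not of the same kind in both libraries. Of their 7 sub-clusters, found without the guidance genes, sub-cluster 0 took up 3.92, 84.0, 21.6 and 13.6%. It was led by Ms4a7, St18, Cd5l, Spp1 and Msr1, several of which are known from macrophages. The 17 macrophage markers, all detected, summed to 533, 1174, 942 and 694 CPM over all endothelial-like nuclei. The same markers came to 1014, 2373, 1040.3 and 1353 CPM among T or NK-like nuclei. In endothelial-like nuclei the 15 endothelial markers summed to 9869.7, 7579, 7374 and 8861 CPM. Within sub-cluster 0, Slit2 was 338 CPM in untreated and 599 CPM in high-fat, a ratio of 1.77 (1.40 to 2.29), and within sub-cluster 3, led by genes that include Fam155a and Pcdh15, 265 and 537 CPM, a ratio of 2.03 (1.78 to 2.31). Sub-cluster 2, led by Klk11 and Adra2a, held 46.0% of the untreated endothelial-like nuclei and had 70.3 and 72.6 CPM, a ratio of 1.03 (0.593 to 1.68). Each of these ratios was smaller than the 3.94 of the whole class. The small sub-cluster 6, led by the division genes Top2a and Kif11, had 1005 CPM in high-fat and 333 CPM in joint-MTZ.

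**Figure D4:**
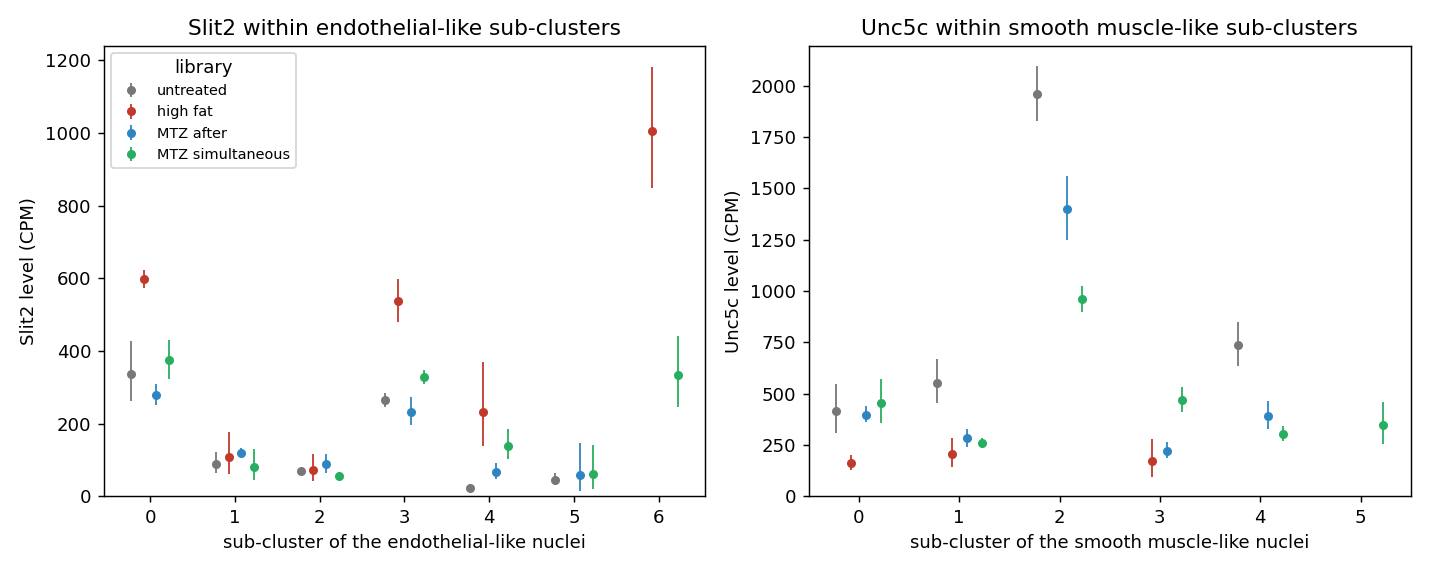
Levels in CPM with 95% counting intervals of Slit2 within sub-clusters of the endothelial-like nuclei and of Unc5c within sub-clusters of the smooth-muscle-like nuclei, for libraries with at least 50 nuclei in the sub-cluster. Slit2 is highest in high-fat in sub-clusters 0 and 3 (599 and 537 CPM) and Unc5c is lowest in high-fat in sub-clusters 0 and 1 (161 and 205 CPM).

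Unc5c in smooth-muscle-like nuclei was the gene called lower in high-fat, with a ratio of 0.239 (0.205 to 0.277) from 206 against 1293 counts. The 13 smooth muscle markers summed to 8186, 4578, 5194 and 7695 CPM in these nuclei, against 387 to 1137 CPM in T or NK-like nuclei. The class was named from these markers, so the sum is no separate check of its identity. All 13 were detected, as they were in endothelial-like and macrophage-like nuclei. The marker sum was thus also lowest in high-fat, and its part in the Unc5c difference was not tested. Within sub-cluster 0, led by genes that include St18, Itgax and Mmp3, Unc5c was 414 CPM in untreated and 161 CPM in high-fat, a ratio of 0.390 (0.267 to 0.572). Within sub-cluster 1, where adipocyte genes such as Cidec and Ppargc1a led, it was 553 and 205 CPM, a ratio of 0.372 (0.247 to 0.547). Sub-cluster 2, led by Ankrd1, Mylk4 and Actn2, had by far the most Unc5c, with 1957 CPM in untreated, 1397 CPM in delayed-MTZ and 959 CPM in joint-MTZ. Its share of the smooth-muscle-like nuclei was 37.5% in untreated and 6.71% in high-fat, where its 45 nuclei were too few for a level. In other classes the ratio of Unc5c was 1.56 (1.34 to 1.81) in macrophage-like and 0.718 (0.604 to 0.851) in endothelial-like nuclei, neither past the 2-fold limit.

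The other calls of this comparison were in macrophage-like nuclei (1549 untreated and 15236 high-fat), a class in which the rule called 10% of all genes higher. Sema3g was 9.22 CPM in untreated and 34.1 CPM in high-fat, a ratio of 3.70 (2.81 to 4.97), and Unc5b had a ratio of 3.11 (2.02 to 4.99) from 247 against 23 counts. Both high-fat levels were within or near the free RNA range given above (28.5 and 22.4 CPM in T or NK-like nuclei). The class also changed its clusters, since cluster 0, led by Il1rn, Spp1 and Mmp12, held 262 of its nuclei in untreated and 10592 in high-fat. Within cluster 0 the ratio of Slit2 was 1.09 (0.823 to 1.47), that of Unc5b 1.27 (0.427 to 6.26) and that of Sema3g 3.19 (1.24 to 11.8). Within cluster 4, led by Mamdc2, Atp6v0d2 and St18, the ratios were 3.72 (3.21 to 4.32), 3.48 (2.02 to 6.43) and 2.84 (2.05 to 4.04).

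The mesenchymal genes below the 2-fold limit still differed beyond counting error. In fibroblast-like nuclei the ratio of high-fat to untreated was 0.520 (0.462 to 0.583) for Robo1 and 0.561 (0.530 to 0.593) for Slit3, and in smooth-muscle-like nuclei 0.645 (0.589 to 0.705) for Slit3. With the free RNA level subtracted, the fibroblast-like ratios were 0.462 for Robo1 and 0.496 for Slit3, past the limit. In endothelial-like nuclei Robo4 had a ratio of 0.899 (0.700 to 1.15), Plxnd1 0.907 (0.833 to 0.987), Sema3g 0.815 (0.718 to 0.925), Ntn1 0.758 (0.720 to 0.797) and Unc5b 0.974 (0.769 to 1.23). Subtraction moved these as well, to 0.480 for Robo4, 0.458 for Ntn1 and 0.462 for Unc5b, all called lower, and to 0.698 for Plxnd1 and 0.536 for Sema3g. These ratios have no interval. The Robo4 level subtracted, 2.18 CPM in untreated and 10.2 CPM in high-fat, rests on few counts.

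The next comparison asked what differed when MTZ was started after atherosclerosis had formed, with the high-fat library as control. Of 51 pairs with enough counts, 7 were called higher and 4 lower in delayed-MTZ, and the rule called 5.42% of all genes (3.87% higher and 1.55% lower). With free RNA subtracted the split was 1 higher and 5 lower, again without a share over all genes. Slit2 in endothelial-like nuclei was lower, with a ratio of 0.280 (0.260 to 0.301) from 970 against 2811 counts, and with free RNA subtracted the ratio was 0.064. Within sub-clusters 0 and 3 the ratios were 0.464 (0.415 to 0.519) and 0.432 (0.353 to 0.526). Sub-cluster 1, which held 58.0% of the endothelial-like nuclei of delayed-MTZ and 4.51% of those of high-fat, was led by genes that include Cyp21a1, a steroid-synthesis gene of the adrenal cortex. There Slit2 was 119 against 108 CPM, a ratio of 1.11 (0.663 to 2.0). Slit2 was also lower in macrophage-like nuclei (ratio 0.415, 0.349 to 0.490). Unc5b was lower in endothelial-like nuclei (0.417, 0.298 to 0.577) and in macrophage-like nuclei (0.413, 0.196 to 0.773, from 10 against 247 counts). In macrophage-like nuclei both genes were below the pooled free RNA level in both libraries.

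Of the 7 genes and classes called higher in delayed-MTZ, 4 were in endothelial-like nuclei, where the rule called 8.48% of all genes higher. These were Unc5c (ratio 3.15, 2.68 to 3.72), Slit3 (2.31, 2.13 to 2.50), Robo2 (2.25, 1.51 to 3.41) and Robo1 (2.0, 1.73 to 2.33). Slit3 and Robo1 were at or below the pooled free RNA level in both libraries (166 against 280.3 CPM and 383 against 386 CPM for Slit3, 51.1 against 66.2 CPM and 102 against 108 CPM for Robo1). Unc5c was below it in high-fat (37.4 against 57.8 CPM) and close to it in delayed-MTZ (118 against 112 CPM), while the ratio of Robo2 after subtraction was 2.65. The make-up of the class moved with them: cluster 7, led by Adarb2, Dach2 and Meox2, held 191 of the endothelial-like nuclei in high-fat and 3588 in delayed-MTZ. In high-fat, cluster 7 held 288 CPM of Slit3, against 161 CPM in cluster 2, and 62.5 against 36.3 CPM of Unc5c. Within cluster 7 Slit3 was 288 CPM in high-fat and 525 CPM in delayed-MTZ, Unc5c 62.5 and 164 CPM, and Robo2 24.0 and 23.6 CPM. Within cluster 2 Slit3 was 161 and 242 CPM, Unc5c 36.3 and 72.0 CPM, and Robo2 6.19 and 7.68 CPM.

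Robo2 was also higher in fibroblast-like nuclei (ratio 21.3, 5.63 to 181, from 55 against 2 counts) and brown-adipocyte-like nuclei (9.47, 2.52 to 79.8, from 64 against 2 counts), and Sema3g in fibroblast-like nuclei (2.15, 1.35 to 3.51). That Sema3g level was below pooled free RNA in both libraries (23.3 against 37.4 CPM and 50.1 against 61.6 CPM). Transcripts of adrenal tissue were present in the same nuclei. The 9 adrenal cortex markers summed to 129 CPM in fibroblast-like nuclei of delayed-MTZ and 2.69 CPM in those of high-fat, where 7 of the 9 were at 0, and the 7 chromaffin markers to 43.8 against 3.59 CPM. In T or NK-like nuclei the adrenal cortex markers summed to 206 CPM in delayed-MTZ and 4.07 to 11.2 CPM in the other libraries. Robo1, Robo2, Slit3 and Unc5c were all at high levels in the adrenal-cortex-like or chromaffin-like nuclei of that library (413, 121, 599.5 and 479 CPM), and the part of free RNA of those cells in the calls was not tested. T or NK-like nuclei of delayed-MTZ held Robo2 at 3.96 CPM from 1 count, and B-like nuclei at 13.7 CPM from 3 counts.

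In smooth-muscle-like nuclei the ratio of Unc5c in delayed-MTZ to high-fat was 1.74 (1.5 to 2.03), short of the limit. Within sub-cluster 0 it was 2.46 (1.91 to 3.21), within sub-cluster 1 it was 1.37 (0.956 to 2.02) and within sub-cluster 3 it was 1.30 (0.762 to 2.40). Slit3 in smooth-muscle-like nuclei had a ratio of 1.24 (1.14 to 1.35), and in fibroblast-like nuclei 1.10 (1.02 to 1.17). Robo1 in fibroblast-like nuclei had a ratio of 1.03 (0.891 to 1.19). In endothelial-like nuclei the ratio was 0.957 (0.903 to 1.01) for Ntn1, 0.862 (0.783 to 0.950) for Plxnd1, 0.959 (0.728 to 1.27) for Robo4 and 1.38 (1.21 to 1.58) for Sema3g. After subtraction the ratios were 0.577 for Ntn1, 0.60 for Plxnd1, 0.193 for Robo4, which was then called lower, and 1.08 for Sema3g. The Robo4 call rests on 1.8 CPM in delayed-MTZ and 9.4 CPM in high-fat left after subtraction, without an interval.

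The last comparison asked what differed when MTZ was given with the diet, against the same high-fat library, so that the values of the 2 MTZ comparisons share their control and are given side by side without an overlap. Of 51 pairs with enough counts, 0 were called higher and 4 lower in joint-MTZ, and the rule called 4.07% of all genes (2.42% higher and 1.65% lower). The split was 4 higher and 3 lower with free RNA subtracted, and 3 higher and 2 lower when the components were centred within each library. The share over all genes was computed for neither. Slit2 was lower in endothelial-like nuclei, with a ratio of 0.420 (0.395 to 0.447) from 1613 against 2811 counts, and the ratio after free RNA was subtracted was 0.436. It was lower by the same rule in T or NK-like (0.260, 0.157 to 0.413) and B-like nuclei (0.433, 0.336 to 0.558). Within endothelial-like sub-clusters 0 and 3 the ratio was 0.626 (0.538 to 0.725) and 0.611 (0.540 to 0.693), and within the dividing sub-cluster 6 it was 0.332 (0.234 to 0.463). The fourth call was Unc5b in macrophage-like nuclei (0.388, 0.214 to 0.652, from 15 against 247 counts), with 0.735 (0.311 to 1.49) within cluster 0 and 0.241 (0.0867 to 0.542) within cluster 4. In the class as a whole its level was below pooled free RNA in both libraries.

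Unc5c in smooth-muscle-like nuclei was 458 CPM against 239 CPM, a ratio of 1.92 (1.66 to 2.22) and close to the limit, and with free RNA subtracted the ratio was 2.19. Within sub-clusters 0, 1 and 3 it was 2.82 (2.01 to 3.96), 1.26 (0.894 to 1.82) and 2.76 (1.64 to 5.01). Slit3 had a ratio of 1.39 (1.31 to 1.48) in fibroblast-like and 1.25 (1.16 to 1.36) in smooth-muscle-like nuclei. Robo1 in fibroblast-like nuclei had 1.08 (0.947 to 1.23). In endothelial-like nuclei the ratio was 0.998 (0.943 to 1.06) for Ntn1, 1.03 (0.938 to 1.13) for Plxnd1, 1.05 (0.807 to 1.37) for Robo4, 1.12 (0.982 to 1.29) for Sema3g and 0.804 (0.618 to 1.05) for Unc5b. After subtraction they were 1.32, 1.06, 1.39, 1.63 and 1.39 in the same order, and the ratio of Slit2 in fibroblast-like nuclei went from 0.953 to 2.51, which was then called higher.

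**Figure D5:**
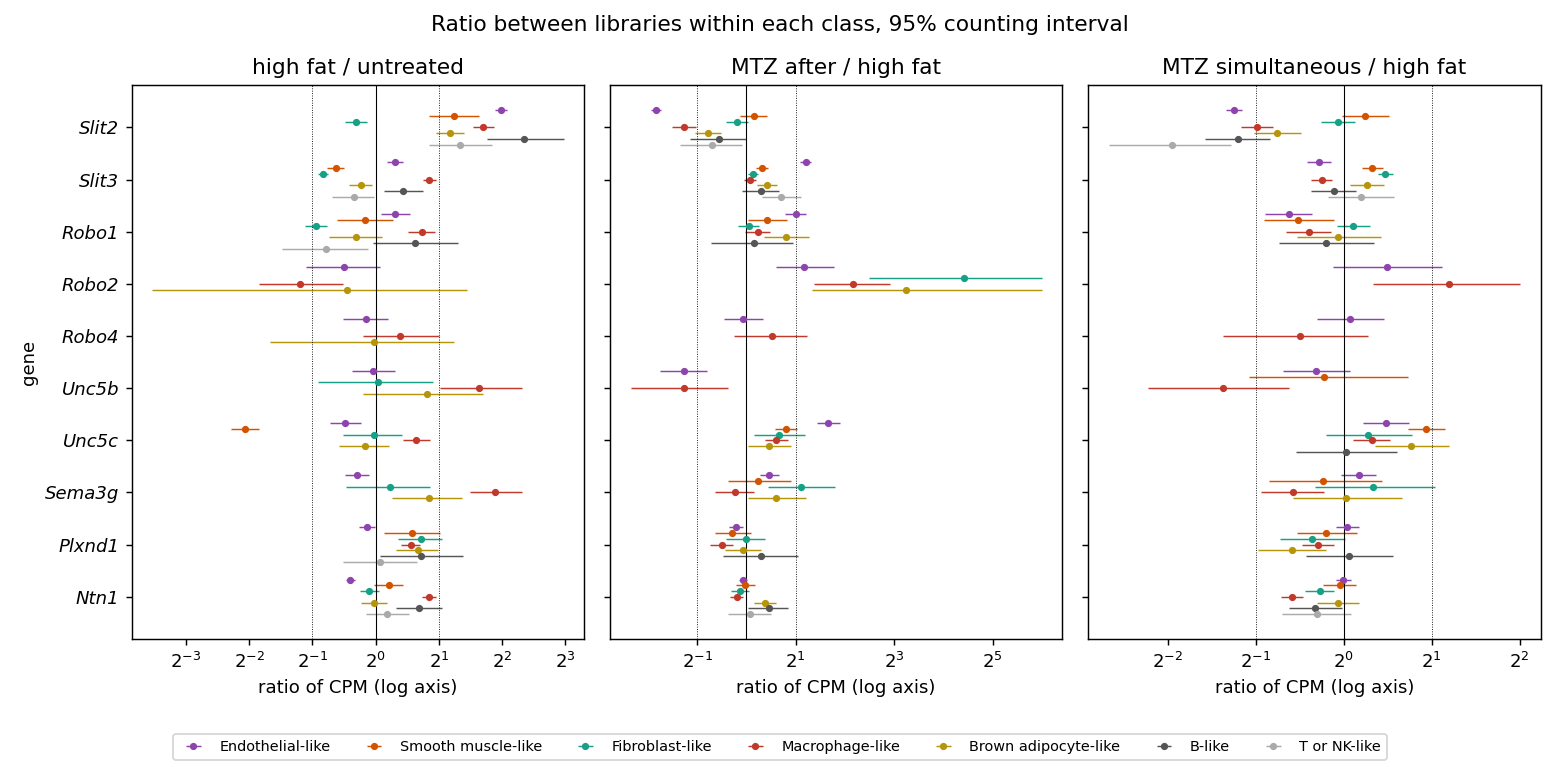
Points give the ratio of CPM between libraries (log axis) for each gene and class with at least 50 counts in 1 of the libraries. Lines are 95% counting intervals, and dotted lines mark 2-fold. In the middle panel 2 Robo2 intervals are drawn cut short of their upper ends, which the text gives. Slit2 lies right of 2-fold in 6 classes in the left panel and left of 1 in 6 of 7 classes in each of the other panels, and Unc5c in smooth-muscle-like nuclei is the leftmost point of the left panel (0.239).

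Endothelial-like nuclei were not uniform in the other guidance genes. Cluster 2, led by Sele, Unc5d and Dkk2, had lower Robo4 values than cluster 7 in all 4 libraries (11.3, 17.5, 15.4 and 17.6 CPM against 65.5, 67.3, 22.3 and 56.8 CPM). It held more Sema3g (93.9, 72.1, 149 and 82.0 CPM against 55.6, 33.7, 44.5 and 45.5 CPM) and more Slit2 (167, 574, 202 and 244 CPM against 35.8, 139, 109 and 112 CPM). Robo4 was highest in sub-cluster 5, led by the capillary genes Gpihbp1, Car4 and Rbp7, with 120.2 CPM in untreated (77 counts), 143 CPM in delayed-MTZ (10 counts) and 134 CPM in joint-MTZ (11 counts). Slit2 was 45.3, 57.3 and 61.0 CPM there, from 29, 4 and 5 counts.

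For each gene the 2 most similar genes outside the pathway were found by Pearson correlation of log2(CPM + 1) over 65 points, each a class or cluster in 1 library, among 13683 genes. The points share libraries, classes and depth, so the values are a description. Slit3 was closest to Adamtsl3 (0.801) and the collagen receptor Ddr2 (0.794), Robo1 to fibrillin-1 (Fbn1, 0.776) and 9630002D21Rik (0.748), and Slit2 to Arhgap44 (0.729) and Heg1 (0.725). Unc5c was closest to the junctophilin Jph2 (0.799) and Stac (0.769). Sema3g was closest to the connexin Gja5 (0.749), known from arterial endothelium, and Mannr (0.741), Plxnd1 to Ehd4 (0.780) and Arhgap31 (0.729), and Ntn1 to Rhoj (0.871) and Tspan9 (0.857). Robo4 was closest to Tbx1 (0.805) and Shank3 (0.746), Robo2 to Cntnap5a (0.705) and the granin Scg2 (0.696), and Unc5b to Ctps (0.742) and Ranbp17 (0.734).

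The rest of the guidance pathway was read from a list of 59 other ligands, receptors and effectors, all of which had a row. In high-fat against untreated, 17 of 234 pairs with enough counts were called higher and 12 lower (12.4%, beside 7.98% of all genes). In endothelial-like nuclei the calls were higher levels of the kinase Pak1 (3.71), the plexin Plxnc1 (2.44) and Sema3a (2.08), and the median log2 ratio of the list was 0.02 against 0.07 for all genes. In fibroblast-like nuclei the ligands Sema3d (0.361) and Sema3e (0.385) were lower and Sema4d (2.45) higher. Smooth-muscle-like nuclei had lower Sema5a (0.413), Sema3a (0.478) and Enah (0.480), the last an actin regulator that acts downstream of Robo. In macrophage-like nuclei Ntn4 (3.18), Unc5d (4.89) and Dscam (4.78) were higher, and in B-like nuclei Srgap2 (2.62), Plxna4 (2.27) and Ntn4 (2.76). Ntn4 in high-fat was 122 CPM in macrophage-like, 121 CPM in B-like and 145 CPM in T or NK-like nuclei. Its macrophage-like level thus did not stand above free RNA. Apart from Ntn4, the genes of this list were not set against free RNA in any comparison. T or NK-like nuclei had lower Flrt2 (0.342) and Sema3c (0.389) and higher Ntn4 (2.16), and brown-adipocyte-like nuclei lower Sema3e (0.321). Unc5a (0.443, 0.0111 to 2.55) and Flrt3 (0.301, 0.00755 to 1.72) were called lower there from 1 count each in high-fat, with intervals that include 1.

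In delayed-MTZ against high-fat, 14 of 225 pairs were called higher and 2 lower (7.11%, beside 5.42% of all genes). Endothelial-like nuclei, in which 8.48% of all genes were called higher, gave 9 of the 14, led by the netrin receptor Dcc (15.4, 5.02 to 77.0, from 57 against 3 counts), Ntng1 (7.17) and Sema5a (3.13). Flrt2, an Unc5 ligand, was higher in smooth-muscle-like (2.08) and brown-adipocyte-like nuclei (2.15), where Flrt1 (3.51) and Sema3d (2.35) were higher too. Sema3d was also higher in fibroblast-like nuclei (2.37), and Unc5d (0.352) and Sema6b (0.450) were lower in macrophage-like nuclei. In joint-MTZ against high-fat, 10 of 237 pairs were called higher and 4 lower (5.91%, beside 4.07% of all genes). Pak1 in endothelial-like nuclei (0.420) and Dscam (0.119), Unc5d (0.283) and Sema6c (0.419, 0.111 to 1.13, from 4 against 61 counts) in macrophage-like nuclei made up the lower calls, the last with an interval that includes 1. Among the higher ones were Flrt1 in endothelial-like nuclei (2.07), Flrt2 (2.0), Sema3e (2.36) and Sema4c (2.85) in smooth-muscle-like nuclei and Sema3a in fibroblast-like nuclei (2.20). Brown-adipocyte-like nuclei had higher Flrt2 (2.11), Sema3d (2.31) and Flrt1 (2.61), and B-like nuclei higher Sema3c (2.30) and Ntng2 (2.22).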

How the data were processed

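The authors deposited a filtered matrix for each library, made with a 10x 3' kit, and its values are raw UMI counts per the file headers. Cell Ranger 7.0.1 is named in the file headers, and STAR and the mm10 build in the submitters' processing notes. Whether intronic reads were counted is not given in the sources used here.

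Nuclei with at least 300 genes and at most 10% mitochondrial counts were kept, and the highest 8% of Scrublet scores per library were removed, with ties kept (7.01 to 7.66%). Scaling to 10000, 2000 variable genes without the pathway list, 30 components and 20 neighbours fed Leiden clustering at resolution 1 (Python 3.11.15, scanpy 1.11.5, leidenalg 0.10.2). Clusters were named from 27 marker lists when at least 3 markers were at least 2-fold enriched, these made up most of the list (or at least 40% with a marker among the 10 leading genes), and no other class led. Classes reaching 200 nuclei in each library were compared and those reaching 50 given a level; endothelial-like and smooth-muscle-like nuclei were sub-clustered at resolution 0.5 on 20 components. Summed counts gave CPM with exact Poisson intervals, ratios with exact conditional intervals and shares with Clopper-Pearson intervals, all at 95% and covering counting error only. Ratios against 0 counts used a floor of 3 counts. The call rule was tested on simulated data.

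The genes, lists and rules were chosen with earlier results of these data known. All 10 genes are named. Of the pathway list, up to 3 called genes per class and comparison are named, by the interval bound farthest from 1. Gene positions are from GENCODE vM21. Alternatives covered clustering, doublets, filters, depth, count minimum and TMM factors (edgeR 4.0.16 in R 4.3.3). Subtraction of free RNA and values within clusters and sub-clusters were added after the data were seen.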

Additional observations from a re-analysis of the deposited data

Results flagged for a closer look

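Several genes differed between classes in the direction of the same comparison, high-fat against untreated, with counting intervals on opposite sides of 1. The difference between classes was not tested, since each group had 1 library.

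For Slit2 the ratio was 5.08 in B-like, 3.94 in endothelial-like, 3.24 in macrophage-like, 2.52 in T or NK-like, 2.35 in smooth-muscle-like and 2.26 in brown-adipocyte-like nuclei, against 0.803 in fibroblast-like nuclei. For Unc5c it was 1.56 in macrophage-like nuclei, against 0.718 in endothelial-like and 0.239 in smooth-muscle-like nuclei. For Sema3g it was 3.70 in macrophage-like and 1.79 in brown-adipocyte-like nuclei, against 0.815 in endothelial-like nuclei.

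Several of these values rest on levels below the pooled T or NK-like and B-like level. This held in both libraries for Sema3g in macrophage-like and brown-adipocyte-like nuclei, for Unc5c in macrophage-like nuclei and for Slit2 in macrophage-like nuclei. It held in high-fat alone for Slit2 in smooth-muscle-like and brown-adipocyte-like nuclei and for Unc5c in endothelial-like nuclei. Slit2 in T or NK-like and B-like nuclei is itself the measure of free RNA.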

How the results depend on the processing

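No paired analysis was possible because each group has 1 library and the labels carry no replicate numbers. Counts of called pairs are given in the order high-fat against untreated, delayed-MTZ against high-fat and joint-MTZ against high-fat, and were 9, 11 and 4. With no minimum count they were 16, 19 and 10. The stricter nucleus filter gave 15, 5 and 5. Leiden resolution 2 gave 4 in delayed-MTZ, another seed 7, no doublet removal 3, and thinning to 500 UMIs 7. With free RNA subtracted the counts were 9, 6 and 7, but mostly of other pairs. Of the 24 calls, only 6 could be compared after subtraction. The rest were in T or NK-like or B-like nuclei, or were not above free RNA in both libraries. All 6 were kept as calls, but 4 of the 6 ratios moved outside their counting interval, each farther from 1. For the other pathway genes, with 29, 16 and 14 calls, thinning gave 13 in high-fat. In delayed-MTZ no doublet removal gave 4 and the stricter filter 5, and components centred within each library gave 28 in joint-MTZ.

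The calls of endothelial-like Slit2 in high-fat and in delayed-MTZ and of smooth-muscle-like Unc5c in high-fat were kept in 11 of 11 alternatives, those of endothelial-like Robo1 in 2 of 10 and fibroblast-like Sema3g in 3 of 10 in delayed-MTZ. Lowering the count minimum to 20 or to none could not remove a call, and each kept 24 of 24. Those 2 settings count in each fraction and are the only 2 that kept the Robo1 call. The delayed-MTZ ratio of endothelial-like Robo2 was 0.962 under the stricter filter and 0.980 within cluster 7, against 2.25 in the class, and that of Slit2 was 1.11 within sub-cluster 1; the cause was not tested. Of the 24 calls, 23 were kept with TMM factors, 20 with equal weight per nucleus, 17 under the stricter filter, 15 when thinned and 14 with centred components. Of the 22 that could be compared, 18 were kept with another seed, 12 at resolution 2 and 10 with no doublet removal. Depth limits Robo2, Robo4 and Unc5b most, with 1467 to 2232 counts each in all kept nuclei.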
